A study of Mus musculus with 12 samples.

Results

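The collagen chain genes were examined class by class in mouse pancreatic stellate cells (PSCs), the fibroblast-like cells that lay down much of the stroma of pancreatic cancer. Every row of the count table whose symbol consists of Col, a type number, the letter a and a chain number was taken, which gave 44 of 39179 genes. They were 11 fibrillar chains (types 1, 2, 3, 5, 11, 24 and 27), 9 chains of network-forming collagens (types 4, 8 and 10), 6 chains of type 6 collagen and 18 others. The rule reads names only, and it was proposed with earlier results of these data known.

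Collagens are trimers of α chains that wind around each other in the endoplasmic reticulum, are secreted as procollagen and assemble outside the cell. Fibrillar collagens form the load-bearing fibres of the stroma, type 4 collagen the meshwork of basement membranes, type 8 a related network, and type 6 collagen beaded microfilaments close to the cell surface. A trimer can hold copies of a single chain, as type 3 collagen does, or of several chains encoded by separate genes, as types 1, 4, 5 and 6 do. Activated stellate cells are known for their production of types 1 and 3.

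The PSCs were an immortalised clonal line, labelled by the submitters as C57BL/6 and carrying mCherry in every culture. They were kept for 72 h alone (mono-PSCs), with pancreatic cancer cells (PCCs) expressing EGFP (2W-PSCs), or with these PCCs and macrophages (MØs) expressing TagBFP (3W-PSCs), each in 4 biological replicates. PCCs were a mouse pancreatic ductal adenocarcinoma line, and MØs were of the RAW264.7 line, which derives from a leukaemia. PSCs were sorted on mCherry and against EGFP and TagBFP, and 12 libraries of 3′ end tags were made from their polyadenylated RNA. All 3 cultures thus share a single PSC clone. Flasks held the same total number of cells, so the number of PSCs plated differed between cultures.

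Each library is a count of fragments from near the 3′ end of transcripts, about 1 fragment per transcript, so counts of different genes were compared without division by transcript length. Levels are given as CPM, the usual count scaled to the size of the library, after TMM correction for differences in library composition. Total counts ranged in mono-PSCs from 5286963 to 8093368, in 2W-PSCs from 4561817 to 6907711 and in 3W-PSCs from 7205488 to 8061367, so that 2W-PSCs and 3W-PSCs did not overlap in depth. 2W replicate 2 stood apart, with Spearman correlations of 0.857 to 0.919 with the other 2W-PSCs, while the remaining pairs within cultures had 0.948 to 0.987. Calls of collagen chains that change without it are given both ways. For genes that make, bind or degrade collagen, only the number called without it is given. A single gene, *Gm26924*, took 10.1% to 17.9% of each library. In bulk RNA, fewer cells of a type and less RNA per cell cannot be told apart.

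The libraries carried the RNA of stromal cells. The summed level of 10 stellate cell or fibroblast markers, of which *S100a4* and *Vim* had the most counts, was in mono-PSCs 3643 to 5253, in 2W-PSCs 3048 to 3740 and in 3W-PSCs 2353 to 2513 CPM. Single markers went different ways, with *S100a4* at 7752 to 17070 counts in mono-PSCs and 3188 to 3974 in 3W-PSCs, *Pdpn* at 755 to 1422 and 2284 to 3643, and *Pdgfra* at 28 to 67 and 213 to 318. The sum of 12 epithelial markers, carried by keratins and *Cdh1*, was in mono-PSCs 1.21 to 3.34, in 2W-PSCs 75.8 to 149 and in 3W-PSCs 54.9 to 92.9 CPM, with *Cldn4* at 0 throughout. The sum of 11 macrophage markers was in mono-PSCs 1.93 to 7.83, in 2W-PSCs 3.24 to 11.5 and in 3W-PSCs 11.8 to 49.8 CPM. *Ptprc*, *Spi1*, *Laptm5*, *Cd52* and *Tyrobp* were at 0 in every library of mono-PSCs and 2W-PSCs, and 5 endothelial markers summed to 5.55 CPM or less. The part of epithelial and macrophage RNA, and of the difference in depth, in the collagen results was not tested.

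Promoter windows of RefSeq (GRCm38.p6), running from 250 bases before to 50 bases after an annotated start, were found for 35 of the 44 members, 38 windows in all. Those of 5 chains on which the results turn are printed 5′ to 3′ on the strand of the gene. The first 3 belong to *Col3a1* and *Col11a1*, which were called lower in 3W-PSCs against either other culture, and to *Col8a1*, which was called higher in 3W-PSCs against mono-PSCs. In these, capitals mark matches on either strand to the letters of the TATA box (TATAAA), of the CCAAT box (CCAAT) or of the GC box (GGGCGG).
Col3a1: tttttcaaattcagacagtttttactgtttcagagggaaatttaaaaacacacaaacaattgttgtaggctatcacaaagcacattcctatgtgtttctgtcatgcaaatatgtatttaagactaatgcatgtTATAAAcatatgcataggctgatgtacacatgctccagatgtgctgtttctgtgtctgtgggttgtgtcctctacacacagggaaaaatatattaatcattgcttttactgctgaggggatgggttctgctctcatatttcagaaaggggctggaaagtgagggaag
Col11a1: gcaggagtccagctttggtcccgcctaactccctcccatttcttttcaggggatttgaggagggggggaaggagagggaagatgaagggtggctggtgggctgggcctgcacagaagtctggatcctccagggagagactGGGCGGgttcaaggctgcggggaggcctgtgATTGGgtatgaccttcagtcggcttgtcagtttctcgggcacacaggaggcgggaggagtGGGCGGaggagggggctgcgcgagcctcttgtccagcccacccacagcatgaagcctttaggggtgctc
Col8a1: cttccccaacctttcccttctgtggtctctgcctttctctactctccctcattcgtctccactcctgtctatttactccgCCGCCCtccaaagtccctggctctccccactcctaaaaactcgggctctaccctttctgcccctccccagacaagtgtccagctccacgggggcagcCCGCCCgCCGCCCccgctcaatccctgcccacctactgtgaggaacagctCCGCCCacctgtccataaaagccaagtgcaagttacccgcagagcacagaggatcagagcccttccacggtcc
The *Col3a1* window (chr1:45311288-45311587) holds 1 TATA box and neither of the other motifs. That of *Col11a1* (chr3:114030290-114030589) holds 2 GC boxes and 1 CCAAT box, and that of *Col8a1* (chr16:57754688-57754987, minus strand) 4 GC boxes. Over all 32851 windows of the same length, 13.6% hold a TATA box, 37.4% a CCAAT box and 35.7% a GC box, against 5, 13 and 23 of the 38 collagen windows. TTCNNNGAA, the letters of a STAT motif, lies in 2 collagen windows and 8.3% of all windows, and TGAGTCA, those of an AP-1 motif, in 1 and 5.2%. These matches describe letters only and do not mark sites of binding.

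*Col4a1* and *Col4a2*, the chains of the common basement membrane trimer, are transcribed away from each other from starts 21 bases apart. They are printed because the windows overlap, and capitals mark the 78 bases shared by them (chr8:11312777-11312854), which read as reverse complements.
Col4a1: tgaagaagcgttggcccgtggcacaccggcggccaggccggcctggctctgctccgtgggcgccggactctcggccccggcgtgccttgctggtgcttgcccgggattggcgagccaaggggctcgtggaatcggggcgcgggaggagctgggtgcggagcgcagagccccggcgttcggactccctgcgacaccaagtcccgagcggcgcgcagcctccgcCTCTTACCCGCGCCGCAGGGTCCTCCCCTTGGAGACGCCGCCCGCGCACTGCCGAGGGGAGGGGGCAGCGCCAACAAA
Col4a2: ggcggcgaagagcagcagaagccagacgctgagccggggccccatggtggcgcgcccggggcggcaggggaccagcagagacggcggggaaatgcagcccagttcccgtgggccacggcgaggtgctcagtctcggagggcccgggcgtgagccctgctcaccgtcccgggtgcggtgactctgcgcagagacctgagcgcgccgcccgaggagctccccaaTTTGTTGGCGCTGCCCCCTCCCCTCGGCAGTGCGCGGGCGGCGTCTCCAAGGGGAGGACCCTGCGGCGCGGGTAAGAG

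The levels of the chains spanned from no count to 3772 CPM, the highest value of *Col1a1*. *Col1a1* and *Col1a2*, the chains of type 1 collagen, took 63.6% to 71.9% of all collagen counts in a library, and the 10 most counted chains took 94.9% over all libraries. Of the 44 genes, 18 had at least 10 counts in every library, 7 had none in any, and 14 never exceeded 3 counts. The chains without a count were *Col4a4*, *Col6a5*, *Col6a6*, *Col9a1*, *Col13a1*, *Col25a1* and *Col26a1*. A count of 3 or less is at the limit of detection, so these chains were not detectable at this depth rather than shown to be absent. In all, 21 members passed edgeR's filter on low counts in the comparisons of 3W-PSCs with 2W-PSCs and of 2W-PSCs with mono-PSCs, and 20 in that of 3W-PSCs with mono-PSCs, where *Col14a1* did not. The filter left 8 of 11 fibrillar chains, 5 of 9 network chains and 3 of 6 type 6 chains. The other 23 members never exceeded 20 counts in a library. In the fibrillar class these were *Col2a1*, *Col11a2* and *Col24a1*, with at most 3, 11 and 1 counts. In the network class *Col4a3*, *Col8a2* and *Col10a1* reached 2, 13 and 5 counts, and *Col6a4* reached 11. *Col9a3*, a chain of a fibril-associated collagen of cartilage, had 8, 4, 3 and 4 counts in 3W-PSCs and 1 count in all other libraries together, too few for the filter. Of the remaining chains outside these classes, *Col15a1* reached 20 counts, *Col17a1* 11, *Col28a1* 5 and *Col20a1* 4, *Col9a2* and *Col22a1* reached 3, and *Col19a1* and *Col23a1* reached 2.

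**Figure D1:**
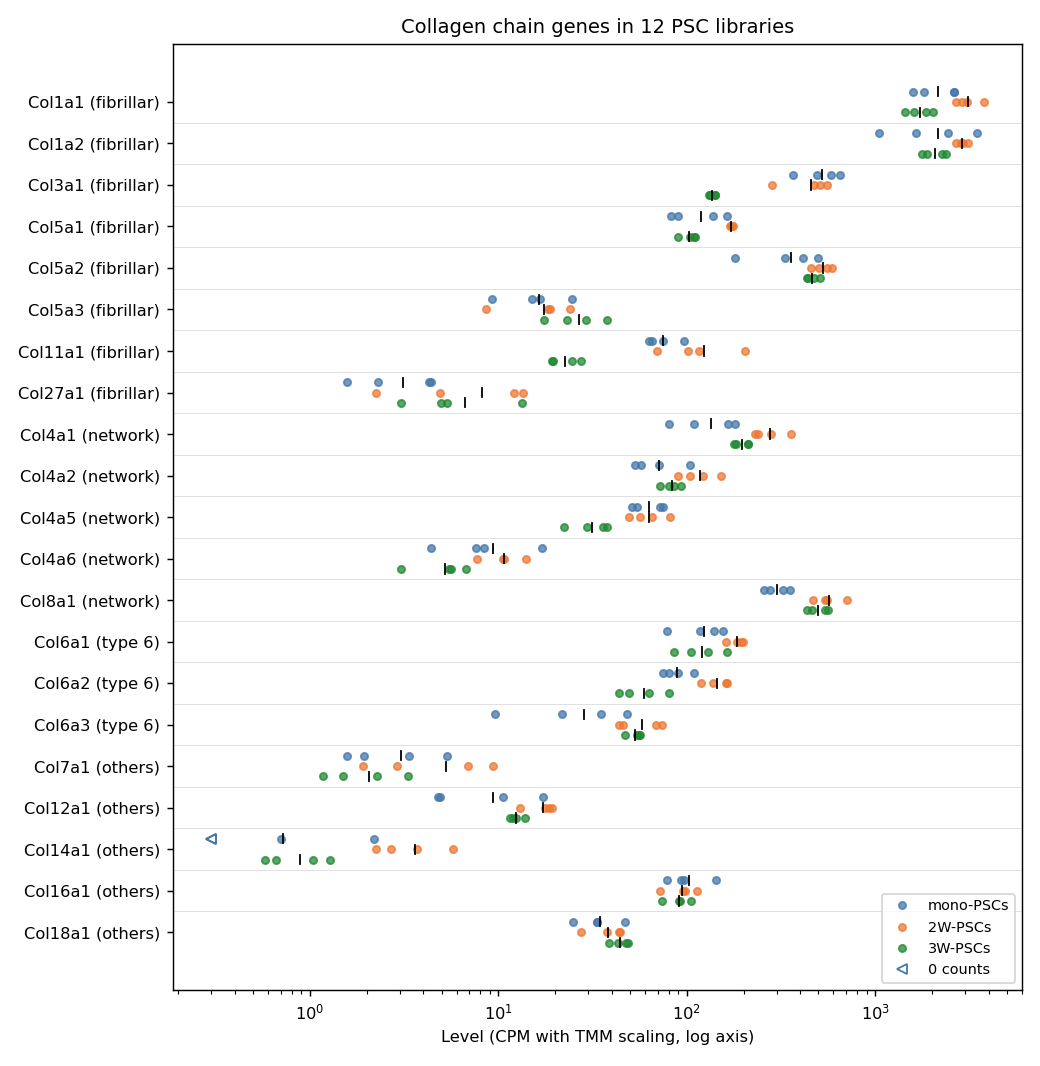
Levels of the 21 tested collagen chain genes in each library, in CPM with TMM scaling on a log axis. Points are libraries (blue mono-PSCs, orange 2W-PSCs, green 3W-PSCs), black ticks are means and open triangles are libraries at 0; the 3W-PSC points of *Col3a1* (130.4 to 141 CPM) and *Col11a1* (19.2 to 27.4 CPM) lie below all points of the other cultures.

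As a share of all counts, collagen chains together took 0.648% ± 0.241 of a library in mono-PSCs, 0.857% ± 0.0318 in 2W-PSCs and 0.597% ± 0.0552 in 3W-PSCs (SD, n = 4 each). The fibrillar class made up most of this, with 0.550% ± 0.221, 0.705% ± 0.0332 and 0.473% ± 0.0456. All 4 libraries of 2W-PSCs lay above all 4 of 3W-PSCs for the fibrillar class (0.674% to 0.737% against 0.414% to 0.517%) and for type 6 (0.0359% to 0.0394% against 0.0192% to 0.0281%). Mono-PSCs spread from 0.305% to 0.805% in the fibrillar class and overlapped both co-cultures. The network class had a different order, at 0.0585% ± 0.0124 in mono-PSCs, 0.0996% ± 0.0118 in 2W-PSCs and 0.0844% ± 0.00728 in 3W-PSCs. For that class every co-culture library lay above every mono-culture library, whose highest value was 0.0697%. This class share rested largely on *Col8a1*, with 36478 counts over all libraries, followed by *Col4a1* with 15962. Among the tested network chains only *Col8a1* lay above mono-PSCs without overlap in both co-cultures. *Col4a5* lay below mono-PSCs without overlap in 3W-PSCs. The share without *Col8a1* was not examined. The class of others stayed between 0.0100% and 0.0214% in all libraries. These shares are descriptions and were not tested.

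**Figure D2:**
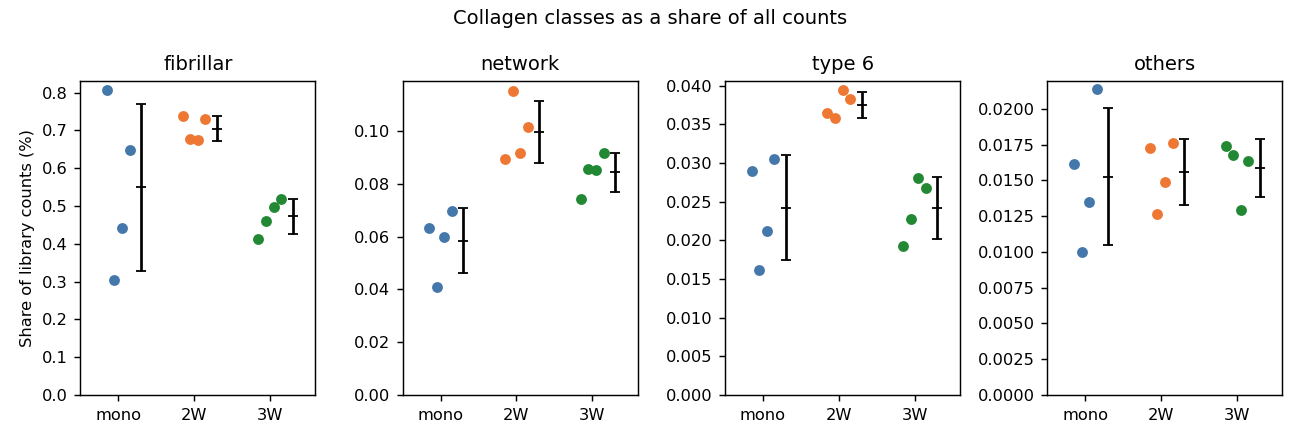
Share of all counts of a library taken by each collagen class, in percent. Points are libraries, and bars are the mean with the SD (n = 4). Fibrillar and type 6 shares of 2W-PSCs lie above those of 3W-PSCs. Network shares, to which *Col8a1* gave the most counts, lie in both co-cultures above those of mono-PSCs.

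To see how the addition of MØs to the PCC–PSC culture moved collagen expression, 3W-PSCs were compared with 2W-PSCs. Of 21 chains tested, 7 fell in 3W-PSCs and 0 rose at an adjusted p under 0.05 in edgeR's quasi-likelihood test. Among all 11513 genes tested, 4.95% were called lower and 5.73% higher, 10.7% in all. The called chains were *Col1a1*, *Col3a1*, *Col5a1* and *Col11a1* of the fibrillar class, *Col4a5* of the network class, *Col6a2*, and *Col14a1* of the others, which passed the filter on low counts only through 2W-PSCs, where it was high. Before adjustment 13 chains were lower and 0 higher at p under 0.05, against 26.3% of all genes, 13.1% in each direction. The 4 libraries of 3W-PSCs lay below the 4 of 2W-PSCs for 10 chains, which holds for 9.87% of all genes (11.5% the other way, 21.3% in all). The median log2 fold change was -0.50 over the 21 chains and 0.0025 over all genes.

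Of the fibrillar chains, *Col3a1* (chr1:45311538-45349706 on GRCm38), whose product forms type 3 collagen alone, had levels of 473, 285, 510.4 and 554 CPM in 2W-PSCs and 141, 141, 132 and 130.4 CPM in 3W-PSCs. The 3W-PSC libraries lay close together and below all 2W-PSC libraries. *Col3a1* fell by 1.74 on the log2 scale (SE 0.21, adjusted p = 0.000538). *Col11a1* (chr3:114030540-114220718), a minor fibril chain that helps to set fibril diameter, was at 102, 205, 69.1 and 116 CPM in 2W-PSCs and at 24.7, 27.4, 19.5 and 19.2 CPM in 3W-PSCs. It showed the largest change among the 7 called chains, with a log2 fold change of -2.43 (SE 0.31, adjusted p = 0.000794), and -2.07 without 2W replicate 2, its highest library. The study had itself singled out *Col11a1*, *Col4a5*, *Col4a6* and *Col6a1* on these libraries, so their directions are not independent evidence.

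*Col1a1* (chr11:94936224-94953042), the α1 chain of type 1 collagen, was at 2899.7, 3772, 2689.6 and 3066 CPM in 2W-PSCs and at 1433, 1600.4, 2019 and 1862 CPM in 3W-PSCs, with no overlap. It fell by 0.84 on the log2 scale (SE 0.19, adjusted p = 0.0157). Its partner *Col1a2* also did not overlap, with 2670.2 to 3091 CPM against 1773 to 2377 CPM, but its log2 fold change of -0.47 did not pass the test (adjusted p = 0.0964). *Col5a1* (chr2:27886425-28039514), the α1 chain of type 5 collagen, which initiates type 1 fibrils, was at 173, 171, 176 and 170.0 CPM in 2W-PSCs, libraries that lay close together. In 3W-PSCs it was at 109, 104, 90.1 and 110.3 CPM, a fall by 0.74 on the log2 scale (SE 0.14, adjusted p = 0.0078). The type 5 partners did not pass the test. *Col5a2* differed by -0.18 (95% interval -0.52 to 0.16) and *Col5a3* by 0.63 (-0.08 to 1.34), the largest positive value among the chains. *Col27a1*, a low fibrillar chain of 2.25 to 13.5 CPM in these libraries, differed by -0.31 with a wide interval of -1.56 to 0.94.

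Among the network chains, *Col4a5* (chrX:141475385-141689234), a basement membrane chain, was at 49.1, 56.7, 65.8 and 81.1 CPM in 2W-PSCs and at 22.3, 29.5, 35.8 and 37.8 CPM in 3W-PSCs. The cultures did not overlap, and *Col4a5* fell by 1.01 on the log2 scale (SE 0.22, adjusted p = 0.0157). Its neighbour *Col4a6*, which lies head to head with it at a distance of 1308 bases, had a like difference of -1.04 at a lower level (7.74 to 14 CPM against 3.05 to 6.76 CPM), with an adjusted p of 0.0599. *Col4a1* and *Col4a2*, whose shared promoter sequence is printed above, differed by -0.50 and -0.49 (adjusted p = 0.102 and 0.120). *Col8a1*, a network chain of vessel walls and of Descemet's membrane, was at 469 to 713 CPM in 2W-PSCs and 434 to 560.3 CPM in 3W-PSCs. Its difference of -0.19 had a 95% interval of -0.58 to 0.20.

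Type 6 collagen is built of an α1, an α2 and a longer α3 chain, and these chains differed in their values. *Col6a2* (chr10:76595762-76623630) was at 119, 162, 137 and 164 CPM in 2W-PSCs and at 43.6, 49.6, 63.4 and 80.3 CPM in 3W-PSCs. With no overlap it fell by 1.29 on the log2 scale (SE 0.21, adjusted p = 0.00373). *Col6a1*, which lies beside *Col6a2* on the same strand, was at 161 to 198 CPM against 85.4 to 163 CPM, a difference of -0.61 that did not pass the test (adjusted p = 0.0779). *Col6a3*, the α3 chain, was at 43.9 to 73.5 CPM against 47.0 to 56.8 CPM and differed by -0.12 (95% interval -0.56 to 0.32).

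The other 18 members were 9 fibril-associated, 4 transmembrane, 2 multiplexin, 2 beaded filament and 1 anchoring fibril collagen chains, of which 5 were tested. *Col14a1*, a fibril-associated collagen, was at 5.77, 3.68, 2.71 and 2.25 CPM in 2W-PSCs and at 0.664, 0.578, 1.27 and 1.04 CPM in 3W-PSCs, which corresponds to 14 to 41 counts per library in 2W-PSCs. It fell by 2.00 on the log2 scale (SE 0.50, adjusted p = 0.0280). *Col12a1*, which binds to fibrils of type 1, was at 13 to 19.3 CPM against 11.6 to 13.9 CPM and did not pass (difference -0.46, adjusted p = 0.191). *Col7a1*, the anchoring fibril collagen, differed by -1.33 at levels of 1.17 to 9.32 CPM in both cultures (adjusted p = 0.160). *Col16a1*, a fibril-associated chain, had means of 103 ± 28.2, 94.8 ± 16.9 and 90.5 ± 12.9 CPM in mono-PSCs, 2W-PSCs and 3W-PSCs, and *Col18a1*, the precursor of endostatin, had 34.6 ± 9.20, 38.3 ± 7.71 and 44.4 ± 4.75 CPM (SD, n = 4 for each culture). Neither was called in any of the 3 comparisons, with values of -0.07 and 0.22 in 3W-PSCs against 2W-PSCs (adjusted p = 0.852 and 0.518).

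The calls for *Col3a1*, *Col5a1*, *Col6a2* and *Col11a1* held in all 14 alternative settings. Those for *Col1a1* and *Col4a5* each held in 11 of 14, and that for *Col14a1* in 6 of 13, and without 3W replicate 1 or without 3W replicate 2 the 4 chains named first were the ones called. Without 2W replicate 2 the count was 10, since *Col1a2*, *Col4a6* and *Col6a1* were called too. DESeq2, with all 8 libraries, called the same 10 chains, beside 1808 genes in all. Its Wald test gave *Col1a2*, *Col4a6* and *Col6a1* adjusted p-values of 0.0188, 0.0240 and 0.0394. The calls over all genes moved as well. They were 1230 of 11513 as reported, 2107 of 11736 without 2W replicate 2, 550 of 11680 without 3W replicate 1 and 497 of 11693 without 3W replicate 2.

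**Figure D3:**
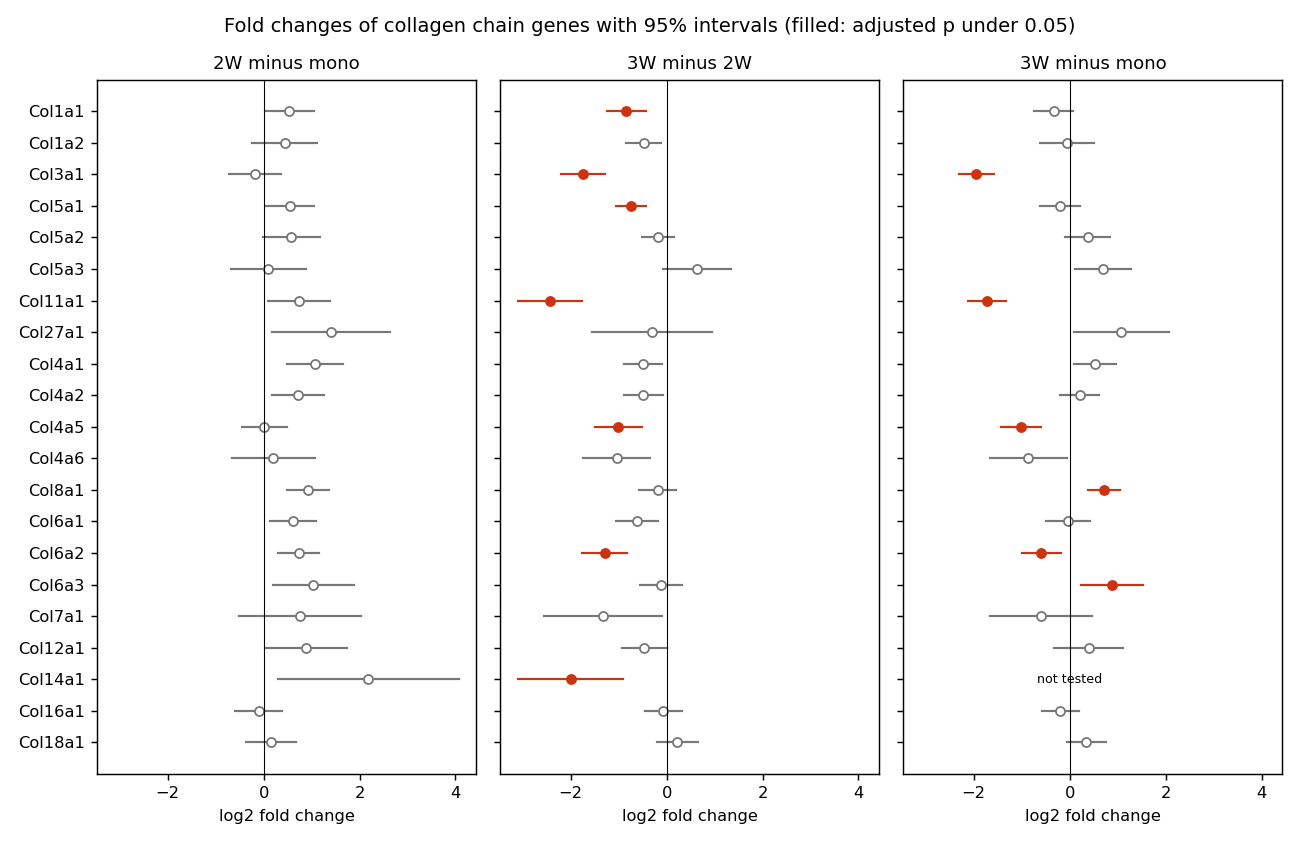
Log2 fold changes of the 21 tested chains in the 3 comparisons, from edgeR's quasi-likelihood test, with 95% intervals. Filled red points have an adjusted p under 0.05: 0 in 2W-PSCs minus mono-PSCs, 7 in 3W-PSCs minus 2W-PSCs (all below 0), and 6 in 3W-PSCs minus mono-PSCs (2 above and 4 below 0).

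For the effect of PCCs alone, 2W-PSCs were compared with mono-PSCs. None of the 21 chains tested passed edgeR's quasi-likelihood test after adjustment (0 called), while 0.991% of 11199 genes did, 0.839% higher and 0.152% lower. Before adjustment 12 chains were higher in 2W-PSCs and 0 lower at p under 0.05, against 4.93% and 2.47% of all genes (7.40% in all). DESeq2 was run on every gene with a count, without edgeR's filter, and its own default filtering can leave genes of low counts without an adjusted p. It called 3 chains higher (*Col4a1*, *Col6a2* and *Col8a1*) out of 37 with a count. Over all genes it called 275 in either direction, out of 17135 with a count. The 4 libraries of 2W-PSCs lay above the 4 of mono-PSCs for 7 chains, which holds for 3.29% of all genes (2.45% the other way, 5.73% in all). The median log2 fold change was 0.61 over the 21 chains and 0.020 over all genes. This comparison shares the 2W-PSC libraries with the one above, and the one that follows shares libraries with both, so the values are given side by side.

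*Col8a1* came closest to the threshold. It was at 276, 258, 355 and 322 CPM in mono-PSCs and at 469, 713, 542 and 554 CPM in 2W-PSCs, with no overlap, a log2 fold change of 0.93 (SE 0.21) and an adjusted p of 0.0587. Without 2W replicate 2, which had the highest value, it was called with a log2 fold change of 0.78 (adjusted p = 0.0282). *Col4a1* was at 179.9, 80.3, 109 and 166 CPM in mono-PSCs and at 239.9, 357, 229 and 279 CPM in 2W-PSCs, again without overlap (log2 fold change 1.06, SE 0.27, adjusted p = 0.107). *Col4a2* overlapped between the cultures and differed by 0.72 (adjusted p = 0.363).

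All 3 type 6 chains were above 0, at 0.61 for *Col6a1*, 0.73 for *Col6a2* and 1.04 for *Col6a3* (adjusted p = 0.420, 0.140 and 0.441). *Col6a3* varied most within mono-PSCs, from 9.60 CPM in replicate 2 to 47.9 CPM in replicate 1. Of the fibrillar chains, *Col1a1*, *Col5a1* and *Col11a1* differed by 0.54, 0.56 and 0.73 (adjusted p = 0.629, 0.559 and 0.544) and *Col3a1* by -0.19 (95% interval -0.73 to 0.35). Without 2W replicate 2 the value of *Col11a1* was 0.35. Mono replicate 2 had the lowest level of *Col1a2* (1051 CPM against 1650.3 to 3464 CPM in the other mono-PSCs) and of *Col5a2* (181 CPM against 334 to 497 CPM). *Col4a5*, at 50.9 to 74.9 CPM in mono-PSCs and 49.1 to 81.1 CPM in 2W-PSCs, differed by 0.01 (95% interval -0.46 to 0.49). *Col14a1* was at 0.702, 0, 0 and 2.18 CPM in mono-PSCs, below every 2W-PSC library, and its adjusted p was 0.508. It passed the filter through 2W-PSCs, where it was high, and is among the 12 chains at p under 0.05 and the 7 without overlap. *Col27a1* differed by 1.41 and *Col12a1* by 0.89, with mono-PSC levels of 1.57 to 4.39 CPM and 4.79 to 17.2 CPM (adjusted p = 0.524 and 0.645). Of the other chains, *Col1a2* differed by 0.44, *Col5a2* by 0.58, *Col7a1* by 0.76, *Col4a6* by 0.21, *Col18a1* by 0.16, *Col5a3* by 0.10 and *Col16a1* by -0.11, with adjusted p-values of 0.700 or more. Epithelial marker RNA was also higher in every 2W-PSC library than in every mono-PSC library, as given above.

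3W-PSCs and mono-PSCs lie at the ends of the design and differ in both added cell types. Of 20 chains tested, 2 rose and 4 fell in 3W-PSCs by edgeR's quasi-likelihood test, in a comparison that called 26.4% of 11551 genes, 13.4% higher and 13% lower. Before adjustment 5 chains were higher and 5 lower, against 19.2% and 19% of all genes (38.2% in all), and the cultures did not overlap for 1 higher and 3 lower chains, against 13.7% and 12.2% (25.9% in all). The median log2 fold change was -0.05 over the 20 chains and 0.012 over all genes. *Col3a1* was at 648, 367, 493 and 585 CPM in mono-PSCs and thus above the 3W-PSCs in every library, and it fell by 1.95 on the log2 scale (SE 0.18, adjusted p = 3.04e-07). *Col11a1* was at 75, 65.4, 62.7 and 96.7 CPM in mono-PSCs, also without overlap, and fell by 1.73 (SE 0.19, adjusted p = 3.02e-06). *Col4a5* was at 54.4, 50.9, 74.9 and 72.2 CPM in mono-PSCs and fell by 1.02 (SE 0.20, adjusted p = 0.000933).

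*Col8a1* rose from the mono-PSC levels given above to 434, 462, 560.3 and 541 CPM in 3W-PSCs, with no overlap (log2 fold change 0.71, SE 0.16, adjusted p = 0.0026). As a share of collagen counts *Col8a1* went from 3.26% to 6.57% in mono-PSCs to 8.45% to 8.90% in 3W-PSCs. Of the type 6 chains, *Col6a3* was called higher (0.89, SE 0.31, adjusted p = 0.0407), *Col6a2* was called lower (-0.59, SE 0.19, adjusted p = 0.0303) and *Col6a1* was not called (-0.03, 95% interval -0.49 to 0.42). Both called type 6 chains overlapped between the cultures. *Col4a1* differed by 0.54 and *Col5a3* by 0.70 (adjusted p = 0.0641 and 0.0748). *Col27a1* differed by 1.08 and *Col4a6* by -0.86 (adjusted p = 0.102 and 0.107), *Col4a6* with 4.39 to 16.9 CPM in mono-PSCs. Values of 0.37 for *Col5a2*, 0.21 for *Col4a2*, -0.21 for *Col5a1*, 0.40 for *Col12a1*, -0.60 for *Col7a1*, 0.35 for *Col18a1* and -0.20 for *Col16a1* had adjusted p-values of 0.195 or more. *Col1a1* and *Col1a2* differed by -0.33 and -0.06 (95% intervals -0.73 to 0.07 and -0.61 to 0.50). The calls for *Col3a1*, *Col4a5*, *Col8a1* and *Col11a1* held in all 14 alternative settings, that for *Col6a2* in 9 and that for *Col6a3* in 8. Without mono replicate 1 the count of called chains was 10, and without mono replicate 2, without 3W replicate 1 or without 3W replicate 2 it was 4, these being the chains that held in all settings. Over all genes 4266 of 11747 were called without mono replicate 1 and 2487 of 11754 without mono replicate 2. Without 3W replicate 1 these were 2411 of 11720, and without 3W replicate 2 they were 2228 of 11701.

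Chains that belong to the same trimer or fibril were also compared as a ratio of counts within each library, which does not depend on library scaling. Of 9 ratios planned, 8 had at least 10 counts of both chains in every library, and each was compared between cultures by a two-sided exact permutation test, 24 tests in all. With 4 libraries against 4 the smallest p possible is 0.029, and the smallest adjusted p over the family was 0.114, so none passed after adjustment. Where 2W-PSCs and mono-PSCs are taken as 4 pairs by replicate number, the exact p cannot go below 0.125. *Col1a1*/*Col1a2* ranged in 3W-PSCs from 0.783 to 0.892, below the 0.945 to 1.41 of 2W-PSCs (geometric means 0.833 and 1.07, exact p = 0.029). *Col5a1*/*Col5a2* ranged in 3W-PSCs from 0.189 to 0.252, below the 0.298 to 0.375 of 2W-PSCs (0.223 and 0.329, exact p = 0.029). *Col6a1*/*Col6a2* went the other way, with a range in 3W-PSCs of 1.61 to 2.57, above the 1.13 to 1.45 of 2W-PSCs (2.03 and 1.28, exact p = 0.029).

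In contrast, *Col4a1*/*Col4a2*, the pair with a shared promoter window, had geometric means in the co-cultures of 2.35 in 3W-PSCs and 2.37 in 2W-PSCs (exact p = 0.83), and 1.84 in mono-PSCs (range 1.51 to 2.51). *Col4a5*/*Col4a6*, the other head-to-head pair, was at 6.07, 5.87 and 7.42 in 3W-PSCs, 2W-PSCs and mono-PSCs, within a range of 3.96 to 12.2 over all libraries. *Col3a1*/*Col1a1* ranged in mono-PSCs from 0.223 to 0.273, in 2W-PSCs from 0.0755 to 0.190 and in 3W-PSCs from 0.0656 to 0.0985. Its geometric mean was lower than that of mono-PSCs (0.243) in 2W-PSCs (0.143) and in 3W-PSCs (0.0795), each with an exact p of 0.029, while 2W replicate 2, the lowest 2W-PSC library, lay within the range of 3W-PSCs (exact p = 0.0857), and the remaining 2W-PSC libraries, at 0.163 to 0.190, lay above it. *Col6a3*/*Col6a1* was 0.123 to 0.342 in mono-PSCs and 0.349 to 0.635 in 3W-PSCs (0.205 and 0.454, exact p = 0.029).

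**Figure D4:**
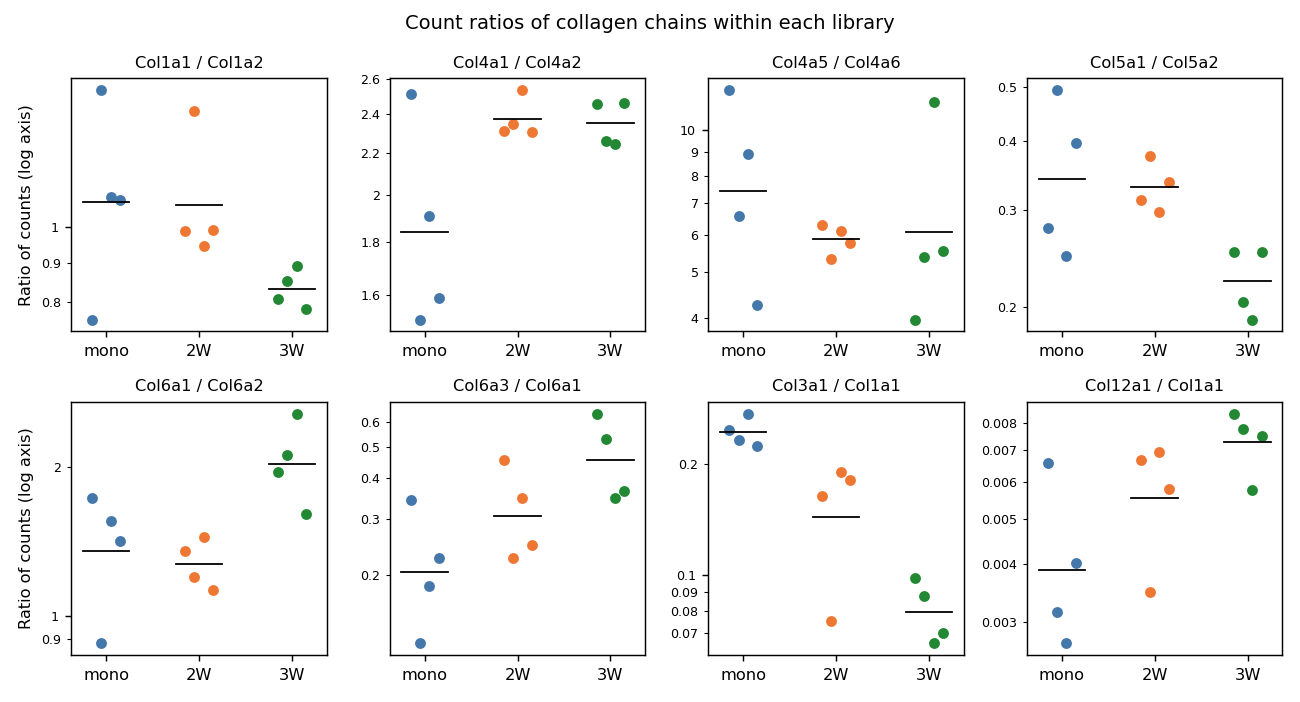
Ratio of the counts of 2 collagen chains within each library, on log axes, for the 8 ratios used. Points are libraries and lines are geometric means (n = 4); *Col1a1*/*Col1a2* and *Col5a1*/*Col5a2* lie lower and *Col6a1*/*Col6a2* higher in 3W-PSCs than in all 2W-PSC libraries, and *Col4a1*/*Col4a2* is 2.35 and 2.37 in the co-cultures.

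Genes that make, bind or degrade collagen were followed as lists. In 3W-PSCs against 2W-PSCs 7 of 47 tested genes were called (14.9%), beside 10.7% of all genes. Of 17 tested genes for folding and hydroxylation, which act on nascent chains in the endoplasmic reticulum, 0 were called in 3W-PSCs against 2W-PSCs by edgeR's quasi-likelihood test. Before adjustment 2 were lower and 0 higher, beside 13.1% of all genes in each direction. The list's median log2 fold change was -0.22. *Serpinh1*, the collagen chaperone, had mean levels of 242 ± 34.6 and 274 ± 162 CPM in 3W-PSCs and 2W-PSCs (SD, n = 4 for both cultures). Of 17 tested genes for secretion, propeptide cleavage and cross-linking, 2 fell, where 4.95% of all genes were called lower. They were *Pcolce*, which enhances cleavage of the C-propeptide, from 961 ± 417 to 482 ± 77.8 CPM (log2 fold change -0.99, SE 0.27, adjusted p = 0.0413), and *Lox*, a cross-linking enzyme, from 668 ± 148 to 405 ± 37.8 CPM (-0.72, SE 0.19, adjusted p = 0.0319). For both genes 2W replicate 2 was the highest 2W-PSC library. *Pcolce* was there at 1557 CPM against 639 to 934 CPM in the remaining 2W-PSCs, and *Lox* at 881 CPM against 541 to 635 CPM. The median over the 17 genes for secretion, cleavage and cross-linking was -0.0029, beside -0.50 for the chains and 0.0025 for all genes.

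Of 7 tested collagen receptors, 2 fell in 3W-PSCs against 2W-PSCs, again beside 4.95% of all genes. *Itga11*, the α11 integrin chain, which binds fibrillar collagen on fibroblasts, was at 4.79, 4.66, 3.50 and 3.53 CPM in 2W-PSCs and at 0.133, 0.347, 0.255 and 1.30 CPM in 3W-PSCs (log2 fold change -2.98, SE 0.61, adjusted p = 0.0118). *Itga1* went from 6.33 ± 2.39 to 2.40 ± 0.149 CPM (-1.39, adjusted p = 0.0386). Of 6 tested proteases 2 fell and 1 rose, beside 4.95% of all genes called lower and 5.73% called higher. *Fap* (-3.88, adjusted p = 0.00532) and *Mmp16* (-0.70, adjusted p = 0.0383) were those that fell. *Mmp13*, a collagenase, rose from 0.845, 1.47, 2.87 and 1.77 CPM in 2W-PSCs to 81.0, 101, 23.2 and 18.4 CPM in 3W-PSCs (5.0, SE 0.64, adjusted p = 0.000840). *Fap*, *Itga11* and *Mmp13* had few counts in the lower culture and passed the filter through the higher one. *Mmp13* was also called higher in 3W-PSCs against mono-PSCs, where it was at 0.783 CPM or less (adjusted p = 4.84e-07). In that comparison too it passed the filter only through 3W-PSCs.

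The 7 called genes of these lists became 11 without 2W replicate 2, 4 without 2W replicate 4, 3W replicate 3 or 3W replicate 4, 3 without 3W replicate 1 and 2 without 3W replicate 2. Over all genes the calls in these settings, in the same order, were 2107, then 666, 750 and 667, then 550 and 497, beside 1230 as reported.

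In 2W-PSCs against mono-PSCs, 1 of 46 tested genes was called (2.17%, beside 0.991% of all genes), *Fap*, a protease that marks activated fibroblasts, at 6.76, 4.42, 3.50 and 5.14 CPM in 2W-PSCs and at 0.878, 0, 0.355 and 0 CPM in mono-PSCs (adjusted p = 0.0390). It had at most 5 counts in mono-PSCs and passed the filter through 2W-PSCs. The count was 0 with the replicate number as a block, 2 without 2W replicate 2, and 0 without any one of mono replicates 2, 3 and 4 and 2W replicates 1, 3 and 4. In 3W-PSCs against mono-PSCs, 8 of 45 tested genes were called (17.8%), beside 26.4% of all genes. *Loxl3* (1.60), *P4ha3* (1.12), *Tgm2* (0.80) and *Mmp13* were higher, and *Leprel1* (-2.29), *Itga1* (-1.14), *Pcolce* (-0.86) and *Mmp16* (-0.67) lower. Without mono replicate 1 the count was 16, in a setting that called 4266 of 11747 genes. Among the 8 called genes *Loxl3*, a lysyl oxidase-like enzyme, had means of 44.4 ± 1.71 CPM with both added cell types and 14.5 ± 3.23 CPM without them (adjusted p = 9.36e-06). *Leprel1*, a prolyl 3-hydroxylase, was at 1.60 ± 1.81 and 7.78 ± 2.15 CPM (adjusted p = 0.00523). It had 0.398, 0.694, 1.02 and 4.29 CPM in 3W-PSCs and passed the filter through mono-PSCs, as *Mmp13* did through 3W-PSCs.

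The positions of the chains bear on how their counts can be read. *Col3a1* and *Col5a2* lie tail to tail on chromosome 1 with 24614 bases between them, and in 3W-PSCs against 2W-PSCs their log2 fold changes were -1.74 and -0.18. *Col6a2* and *Col6a1* lie on the same strand of chromosome 10 with 85161 bases between them, with -1.29 and -0.61. None of the 75-base windows in the last 500 bases of the tested chains occurred letter for letter in an annotated transcript of another gene (0%). Copies with mismatches or outside annotated transcripts were not searched. Exons of *Col3a1* overlap those of *Gm47302* on the same strand over 141 bases, those of *Col7a1* overlap *Mir711* over 36 bases, and *Col5a1*, *Col4a1* and *Col4a2* overlap genes on the opposite strand over 212, 22 and 65 bases. These overlaps are those of GENCODE M21, whereas the authors counted on an Ensembl annotation of GRCm38 that was not compared with it. The strand setting of the counting is not given in the sources used here. Where the annotation used for counting holds the same overlap, reads in those stretches may belong to either gene.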

How the data were processed

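PSCs of 3 cultures (mono, 2W, 3W; 4 libraries each, 72 h) were profiled by 3′ end sequencing of polyadenylated RNA with single reads of 75 bases. The authors checked and trimmed reads (FastQC), ran STAR on GRCm38 and featureCounts on Ensembl genes, and tested with DESeq2. The deposited values were whole, unscaled counts for 39179 genes, although the study's methods speak of normalised read counts. The strand setting and any use of molecular identifiers are not given in the sources used here. No column was left out (0 without a sample).

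Genes were filtered with filterByExpr, scaled by TMM and tested with edgeR 4.0.16 (R 4.3.3, limma 3.58.1) by two-sided quasi-likelihood tests on the 8 libraries of each comparison, with Benjamini-Hochberg adjustment over all genes tested and a threshold of 0.05. The code was tested on simulated data. Chain ratios (0.5 counts added) used exact permutation tests. Alternatives were other size factors and filters, all 12 libraries in 1 fit, DESeq2 1.42.0, each library left out, the replicate number as a block, 1 count added for ratios, another denominator for shares and, chosen after seeing the data, a paired exact test of ratios for 2W-PSCs and mono-PSCs. Positions are those of GENCODE M21 on GRCm38.

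Every chain tested in a comparison is described, and chains not tested are given by class with their highest counts. Of the genes that make, bind or degrade collagen, those called are named, and *Serpinh1* was added after its values were seen. Members and lists were chosen with earlier results of these data known. For 2W-PSCs and mono-PSCs, same-numbered libraries correlated in their deviations (r = 0.102 to 0.338, 4 of 4 pairs over 0.1). Most libraries of unlike number had values below 0, down to -0.265 for 2W replicate 2 and mono replicate 1. Some were over 0.1, with 0.216 for 2W replicate 3 and mono replicate 1 and 0.173 for 2W replicate 2 and mono replicate 4. The labels state no pairing, so a pairing by number was neither established nor excluded. The main tests of genes and ratios took these libraries as unpaired. The labels name biological replicates without saying more on their origin, so p-values measure the spread between these libraries. Total counts of 4561817 to 8093368 set the precision, and a count of 3 or less was taken as the limit of detection.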

Additional observations from a re-analysis of the deposited data

Results flagged for a closer look

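The ratio of *Col1a1* to *Col1a2* counts in 2W-PSCs had a library far from the others. It was 1.41 in replicate 2, and the other libraries lay between 0.945 and 0.992, so that the gap took 0.901 of the whole range. Replicate 2 is also the library that correlated least with the other 2W-PSCs. In all, 102 groups of 4 libraries were examined and 1 was picked out in this way, whereas chance alone picks out about 5% of groups.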

How the results depend on the processing

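The count of called collagen chains in 3W-PSCs against 2W-PSCs (7) was 4 to 10 with each library left out, 5 with the replicate number as a block, 10 with DESeq2 and 6 to 7 otherwise. For 2W-PSCs against mono-PSCs (0) it was 1 with no filter, 2 with all 12 libraries in 1 fit, 3 with DESeq2, 0 with the block and 0 to 1 with a library left out. For 3W-PSCs against mono-PSCs (6) it was 11 with no filter, 7 with the block, 8 with DESeq2, 4 with all 12 libraries and 4 to 10 with a library left out. The genes that make, bind or degrade collagen (7, 1 and 8 called) numbered 3, 0 and 10 with the block, 10, 2 and 12 with DESeq2, and 2 to 11, 0 to 2 and 6 to 16 with a library left out. Over all genes the block took the calls from 1230 to 752 in 3W-PSCs against 2W-PSCs and from 3054 to 3092 in 3W-PSCs against mono-PSCs. In both of these comparisons 1 of 4 same-numbered pairs correlated over 0.1 (r = -0.047 to 0.156 and 0.00081 to 0.106). The labels do not say whether same-numbered libraries belong together. DESeq2 called 1808, 275 and 3416 genes in all in 3W-PSCs against 2W-PSCs, 2W-PSCs against mono-PSCs and 3W-PSCs against mono-PSCs. With a library left out the calls over all genes were 497 to 2107, 61 to 233 and 2228 to 4266. The cause of these changes was not tested.

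Signs turned for some chains that were not called. Log2 fold changes of *Col4a5* in 2W-PSCs against mono-PSCs were -0.017 with no filter, -0.0080 with all 12 libraries and -0.14 to 0.11 with a library left out, and that of *Col1a2* in 3W-PSCs against mono-PSCs was 0.073 with the block and -0.29 to 0.27 with a library left out. With a library left out, *Col6a3*, *Col27a1* and *Col16a1* in 3W-PSCs against 2W-PSCs ranged from -0.23 to 0.0060, -0.88 to 0.033 and -0.17 to 0.024. *Col4a6*, *Col5a3* and *Col16a1* in 2W-PSCs against mono-PSCs ranged from -0.049 to 0.66, -0.11 to 0.35 and -0.23 to 0.087, and *Col6a1* and *Col16a1* in 3W-PSCs against mono-PSCs from -0.21 to 0.10 and -0.31 to 0.0051. Of single-chain values 787 kept direction and call, 23 turned direction, 27 gained a call and 24 lost one. Of 224 values of log2 ratio differences 212 kept their direction, and 12 turned with a library left out. In 2W-PSCs against mono-PSCs these were *Col1a1*/*Col1a2* (-0.18 to 0.15), *Col5a1*/*Col5a2* (-0.20 to 0.13) and *Col6a1*/*Col6a2* (-0.29 to 0.031), and in 3W-PSCs against 2W-PSCs *Col4a1*/*Col4a2* (-0.034 to 0.020) and *Col4a5*/*Col4a6* (-0.26 to 0.25, negative without 3W replicate 3). With the replicate number as a block the ratio of *Col3a1* to *Col1a1* in 2W-PSCs against mono-PSCs had an exact p of 0.125. Without the most counted gene and mitochondrial genes, shares in 2W-PSCs and 3W-PSCs were 1.08% and 0.747% for all chains, 0.886% and 0.591% for fibrillar, 0.125% and 0.106% for network (mono-PSCs 0.0716%), 0.0471% and 0.0303% for type 6 and 0.0196% and 0.0197% for others, with a smaller denominator by construction. Depth limits statements on the 23 chains of 20 counts or fewer.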
